A study of Mus musculus with 6 samples.

Results

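Keratins are the intermediate filament proteins of epithelia. A type I and a type II chain pair up to build each filament, and each differentiation state of an epithelium uses its own pairs, such as K8 with K18 in simple epithelia, K5 with K14 in the basal layer of the epidermis and K1 with K10 above it. In the mouse the type I genes stand side by side on chromosome 11 and the type II genes on chromosome 15, where the type I gene Krt18 also lies, next to Krt8. Krt8 and Krt18 are among the first keratins of the mouse embryo and mark the trophectoderm, while hair and epidermal keratins belong to late differentiation.

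The keratin regions described here are the accessible regions whose midpoint lay inside a keratin gene or within 20 kb of one, with each region counted once. A keratin gene was a protein-coding gene of the GRCm38.p6 annotation (mm10) with the symbol Krt, digits and at most 1 letter. There were 53 such genes, 27 on chromosome 11 and 26 on chromosome 15. They gathered 55 of the 69689 regions in the deposited table, 26 at the type I locus and 29 at the type II locus. The members were chosen by their position and selected on the cluster names found there, since the set was proposed with results of these data known. Their cluster make-up and counts are therefore a description, with no test.

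The regions come from ACC-seq, in which the Tn5 transposase cuts open chromatin, in R1, a wild-type mouse embryonic stem cell line. The 6 libraries formed 3 groups of 2. Fix_1,6-Hex cells stood in 10% (w/v) 1,6-hexanediol for 30 s and stayed in it while being fixed with 1% formaldehyde for 10 min, Fix cells had the same fixation without hexanediol, and Fresh cells had neither. All nuclei were tagmented for 30 min, at 55 °C in both fixed groups and at 37 °C in Fresh. All 3 groups shared the MEF feeder layer, from which cells were separated by replating, and a medium with serum, LIF, CHIR-99021 and PD0325901. The table holds no value per library, so no keratin region can be called more or less open in any group, the depth behind a region is unknown, and no label or file says what each of the 9 cluster names stands for. A gene end was taken as within 1 kb of either gene limit. At least 1 region lay there at 8 of 8 naive stem cell marker genes and at 6 of 10 feeder fibroblast markers. Of 6 genes listed as markers of differentiating epithelium, 4 had one (Krt14, Epcam, Cdh1 and Grhl2), and Krt5 and Trp63 had none. Over all 21887 protein-coding genes the share was 60.9%. Expression was not measured, so these counts do not show which cells were present. The part of feeder cells in the keratin regions was not tested.

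The promoters that a region reached are shown first, because they were few. RefSeq promoter sequences (GRCm38.p6, 250 bases before to 50 after the gene start) were at hand for 36 of the 53 keratin genes, with 37 windows. Among the genes without one were Krt1, Krt19, Krt80, Krt86, Krt88 and Krt222, each with a region at a gene end. Whether a region overlapped their promoters is unknown, so the count below covers the 36 genes only and could be low for the family. A region overlapped 3 of the 37 windows, those of Krt8, Krt18 and Krt42, against 47.1% of the 32851 promoter windows of the table. They are printed 5′ to 3′ on the gene's strand, beside those of Krt7, a simple epithelial keratin with the most GC-rich of these windows, and Krt5, the basal epidermal type II keratin, neither of which a region overlapped. Capitals mark matches on either strand to any of 5 motifs. They are the letters of the TATA box, TATAAA, and the GC box, with the letters GGGCGG. They are further the AP-1 motif, with the letters TGANTCA, and the AP-2 motif, with the letters GCCNNNGGC. The last is the octamer of POU factors, with the letters ATGCAAAT. Overlapping matches run together. An AP-2 match of Krt7 overlaps a GC box in this way, and TATAAA in Krt8 matches on both strands.
Krt8, minus strand, chr15:102004293-102004592: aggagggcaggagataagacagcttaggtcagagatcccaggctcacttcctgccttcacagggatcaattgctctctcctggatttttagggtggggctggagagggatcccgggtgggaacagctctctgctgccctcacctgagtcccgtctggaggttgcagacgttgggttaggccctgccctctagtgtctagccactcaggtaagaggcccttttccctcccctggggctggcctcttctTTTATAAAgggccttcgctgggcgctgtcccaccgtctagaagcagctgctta
Krt18, plus strand, chr15:102027966-102028265: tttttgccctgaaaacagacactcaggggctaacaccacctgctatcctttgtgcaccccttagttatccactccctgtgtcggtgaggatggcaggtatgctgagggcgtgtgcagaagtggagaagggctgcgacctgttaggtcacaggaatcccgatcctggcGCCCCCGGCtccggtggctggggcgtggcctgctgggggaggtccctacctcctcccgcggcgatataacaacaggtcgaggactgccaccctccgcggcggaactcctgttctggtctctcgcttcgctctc
Krt42, minus strand, chr11:100269902-100270201: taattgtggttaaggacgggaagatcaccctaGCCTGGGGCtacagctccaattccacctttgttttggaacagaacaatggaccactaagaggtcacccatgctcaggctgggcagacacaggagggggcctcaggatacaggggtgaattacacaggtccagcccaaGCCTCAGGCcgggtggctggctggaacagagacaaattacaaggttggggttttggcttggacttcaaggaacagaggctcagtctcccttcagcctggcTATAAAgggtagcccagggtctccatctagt
Krt7, plus strand, chr15:101412153-101412452: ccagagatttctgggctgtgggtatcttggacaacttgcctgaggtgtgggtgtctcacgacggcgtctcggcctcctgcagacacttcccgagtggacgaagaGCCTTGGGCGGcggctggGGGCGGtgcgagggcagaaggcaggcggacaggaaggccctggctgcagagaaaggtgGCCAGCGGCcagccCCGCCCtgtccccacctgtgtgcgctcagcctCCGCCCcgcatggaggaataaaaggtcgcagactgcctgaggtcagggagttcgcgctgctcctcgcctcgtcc
Krt5, minus strand, chr15:101712856-101713155: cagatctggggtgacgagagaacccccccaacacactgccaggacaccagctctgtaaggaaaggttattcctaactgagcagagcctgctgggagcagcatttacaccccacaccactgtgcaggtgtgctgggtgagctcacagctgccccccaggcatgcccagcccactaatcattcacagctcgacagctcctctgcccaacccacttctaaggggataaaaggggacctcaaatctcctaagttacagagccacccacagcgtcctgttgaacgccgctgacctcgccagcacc

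Keratin promoters held TATAAA more often and GGGCGG less often than promoter windows at large, with no test of the difference. TATAAA was in 19 of the 37 windows (51.4%) at any position and on either strand, against 13.6% of all windows. On the gene's strand, between 40 and 20 bases before the start, where TATA boxes usually lie, it was in 13 of 37 (35.1%), against 1.99% of all windows. That stretch was chosen after the positions were seen. In the windows that a region overlapped, TATAAA lay outside it, beginning 1 base before the annotated start in Krt8 and 19 bases after it in Krt42. GGGCGG was in 2 of 37 (5.41%, Krt7 and Krt75), against 35.7% of all windows. The median GC content was 48.7% (range 39.7 to 66.3), against 52.7%, and the median number of CpG sites was 5 (range 2 to 21), against 7. AP-1 was in 5.41% and AP-2 in 18.9% of the keratin windows, against 7.81% and 16.6%. The 2 windows with AP-1 both belong to 1 gene, Krt13. None of the 37 held the octamer, which 1.74% of all windows hold. Among all windows, those that a region overlapped had a median of 21 CpG sites and those without a region a median of 3. The 34 keratin windows without a region had a median of 5 CpG sites, so beside windows of that kind the keratin ones were not the poorer in CpG. Of these 34, 5.88% held GGGCGG, against 9.38% of all windows without a region, and 50.0% held TATAAA, against 20.2%. The 3 overlapped keratin windows had 6 (Krt8), 17 (Krt18) and 2 (Krt42) CpG sites. Krt7 had 21 CpG sites and 4 GC boxes, and its nearest region began 2.47 kb from the start. A match is a description of these letters, not evidence that a factor binds.

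Keratin genes had an accessible region at a gene end less often than protein-coding genes at large. Of the 53 genes, 12 did (22.6%, exact binomial 95% interval 12.3 to 36.2), against 60.9% of all protein-coding genes and 61.8% of the 2516 other genes with lengths between the lower and upper quartile of keratin genes (5.12 and 9.48 kb). Within 20 kb, 39 of 53 keratin genes (73.6%) had a region, against 83.1% of all genes and 84.9% of those of similar length. A region lay inside 14 of 53 (26.4%), against 64.7% of all genes. Keratin genes had a median of 1 region within 20 kb (range 0 to 10), against 4 for all genes and 4 for those of similar length. These intervals cover counting error only, and neighbouring genes share regions, since 35 of the 55 regions lay within 20 kb of more than 1 keratin gene. When a region had to overlap a gene limit, the count was 5 of 53 genes (9.43%, against 55.3% of all genes): Krt8, Krt18, Krt19, Krt80 and Krt222. With gene starts only, 4 of 36 genes with a promoter entry had a region midpoint within 1 kb (11.1%, against 62.4%), those of Krt8, Krt18, Krt42 and Krt23.

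**Figure D1:**
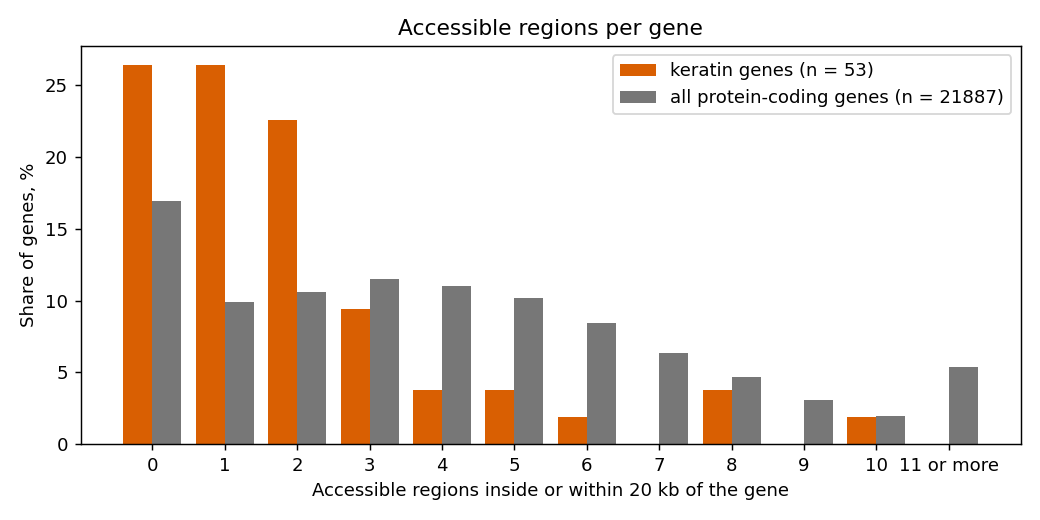
Share of genes (vertical axis, %) by the number of accessible regions inside or within 20 kb (horizontal axis), for 53 keratin genes and all 21887 protein-coding genes. Keratin genes are most numerous at 0, 1 and 2 regions, with 14, 14 and 12 genes, and Krt42 is the 1 keratin gene at 10.

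By tissue role, simple epithelial keratins had a region at a gene end in 3 of 5 cases, Krt8, Krt18 and Krt19, all markers of simple epithelia in the early embryo and in glands. Krt7 had a region inside the gene and none at an end, and Krt20, a keratin of the gut lining, had none within 20 kb. Keratins of stratified epithelia had one in 3 of 20 cases, Krt1, Krt14 and Krt80. Hair shaft keratins had one in 1 of 15 cases, Krt86. Keratins of the inner root sheath and companion layer of the hair follicle had none at an end in 8 cases. The remaining genes, Krt23, Krt42, Krt88, Krt90 and Krt222, had one in 5 of 5 cases. Hair shaft keratins also made up 7 of the 14 genes with no region within 20 kb, namely Krt31, Krt32, Krt33a, Krt33b, Krt34, Krt35 and Krt36. These 7 are neighbours in 1 stretch of chromosome 11 without a region, and so are not separate cases. The other 8 hair shaft keratins, those on chromosome 15 among them, had up to 3 regions each. No region within 20 kb was found for 26.4% of keratin genes and 16.9% of all protein-coding genes. The groups hold 5 to 20 genes each and share regions, so their differences were not tested.

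At the single genes, Krt8 stood apart by width. Its region, chr15:102002911-102005868, was 2958 bp wide, the widest of the 55, belonged to cluster 1 and covered the whole promoter window. The region at Krt18, chr15:102028029-102028436, was 408 bp wide, belonged to cluster 9 and covered 237 of the 300 promoter bases, with the gene start inside it. The region at Krt42, chr11:100269997-100271382, was 1386 bp wide, belonged to cluster 9 and covered 205 of the 300 bases, with its near edge 0.046 kb upstream of the gene start. So the paired genes Krt8 and Krt18 had their gene starts in regions of different clusters. The gene table lists EndoA and EndoC as other names of Krt8 and Krt19, and ecat6 as another name of Krt42.

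Krt19, a type I keratin of simple epithelia, had a cluster 1 region of 1326 bp over a gene limit (chr11:100144871-100146196). Krt14, the basal epidermal type I keratin, had a cluster 9 region of 356 bp at the far end of the gene from its start (chr11:100203449-100203804), with its promoter start 2.23 kb from the nearest region. Its partner Krt5 had regions of clusters 9 (885 bp) and 6 (513 bp) at 2.54 and 4.48 kb from the gene and none inside it. Krt1 had a cluster 9 region of 375 bp at a gene end (chr15:101845939-101846313). Its partner Krt10, the type I keratin of the upper epidermis, had a cluster 8 region of 882 bp inside the gene (chr11:99385858-99386739), 2.62 kb from the promoter start and not at a gene end. None of these epidermal genes had a region over its promoter window where one was at hand (Krt5, Krt10 and Krt14).

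The remaining gene-end regions were narrower than 1039 bp, the median of all gene-end regions. They were those of Krt222 (cluster 7, 261 bp), Krt23 (cluster 7, 376 bp), Krt80 (cluster 9, 814 bp), Krt88 (cluster 1, 350 bp), Krt86 (cluster 9, 200 bp) and Krt90 (cluster 9, 330 bp), and a region of cluster 6 (491 bp) at the far end of Krt42. Of the 13 regions at keratin gene ends, 4 lay at the start of the gene, 3 at its far end and 6 at genes without a strand in the promoter table.

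Cluster 9 was the most frequent cluster near keratin genes and clusters 2, 3 and 4 did not occur. Over both loci, 23 of 55 regions belonged to cluster 9 (41.8%, exact binomial 95% interval 28.7 to 55.9), against 26.2% of all regions and 25.1% of the 55768 regions within 20 kb of any protein-coding gene. Clusters 2, 3 and 4 together had 0 of 55 regions, which allows a share of up to 5.45% (exact interval up to 6.49%), against 9.36% of all regions. Cluster 1 held 13 (23.6%, against 18.7%), cluster 7 held 7 (12.7%, against 18.9%), cluster 8 held 7 (12.7%, against 9.04%), cluster 6 held 4 (7.27%, against 12.7%) and cluster 5 held 1 (1.82%, against 5.06%). Taken singly, clusters 2, 3 and 4 hold 2.27%, 3.61% and 3.47% of all regions. At the type I locus their 0 of 26 allows up to 11.5%, against 10.3% on chromosome 11. At the type II locus 0 of 29 allows up to 10.3%, against 7.91% on chromosome 15. Their absence at either locus alone therefore says little.

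Cluster 9 took the larger share at the type II locus, with intervals that overlap between the loci. At the type II locus 15 of 29 regions belonged to it (51.7%, 32.5 to 70.6), against 28.0% of all regions on chromosome 15. At the type I locus 8 of 26 did (30.8%, 14.3 to 51.8), against 27.8% of all regions on chromosome 11. The type I share lay near that of its chromosome. Among regions of 300 bp or wider the type I share of cluster 9 was 4 of 20 (20.0%), behind clusters 1 and 8 with 5 each, while the type II share was 10 of 23 (43.5%) and that over all such regions 16.3%. Cluster 8 had 5 of 26 regions at the type I locus and 2 of 29 at the type II locus.

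**Figure D2:**
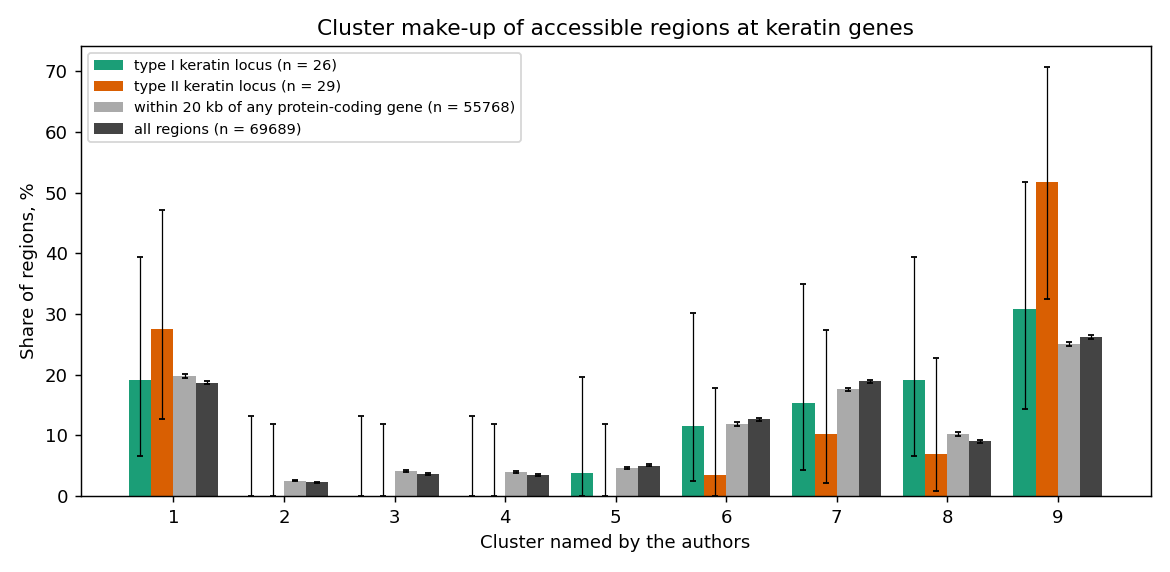
Share of regions (vertical axis, %) in each of the 9 clusters, for keratin regions of the type I locus (n = 26) and of the type II locus (n = 29), then regions within 20 kb of any protein-coding gene and all regions; bars are shares and whiskers exact binomial 95% intervals. Cluster 9 reaches 51.7% at the type II locus, and clusters 2, 3 and 4 have no keratin region.

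Cluster 9 was also the most frequent cluster at keratin gene ends. Of the 13 regions at keratin gene ends, 7 belonged to cluster 9 (53.8%, 25.1 to 80.8), 3 to cluster 1, 2 to cluster 7 and 1 to cluster 6. Of all 13205 gene-end regions, 10.1% belonged to cluster 9, 20.6% to cluster 1, 5.42% to cluster 7 and 6.08% to cluster 6. Cluster 8 and clusters 2, 3 and 4, which hold 21.9% and 31.4% of gene-end regions in the table, had 0 of 13, which allows a share of up to 23.1%. Of the 41 keratin regions away from any protein-coding gene end, 16 belonged to cluster 9 (39.0%, 24.2 to 55.5), against 30.0% of all such regions. Clusters 2, 3 and 4 had 0 of these 41, which allows a share of up to 7.32%. That lies above the 4.20% they hold of all such regions, so their absence there says little.

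Gene by gene, a cluster 9 region lay within 20 kb of 32 of the 53 keratin genes (60.4%), against 51.2% of all protein-coding genes, 20 of 26 at the type II locus and 12 of 27 at the type I locus. Cluster 9 and no other cluster lay within 20 kb of 12 of the 53 (22.6%), against 3.02% of all genes. All 12 had 1 or 2 regions, and among genes with 1 or 2 regions the share was 12 of 26 keratin genes (46.2%), against 13.5% of 4467 other genes. At the type II locus these were 10 genes, among them Krt1, Krt2, Krt4, Krt7 and Krt75 to Krt77. At the type I locus they were Krt13 and Krt25. Some of these genes share 1 region, such as the cluster 9 region of 286 bp that lay within 20 kb of Krt4, Krt76 and Krt79 (chr15:101912265-101912550).

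Accessible regions were not spread evenly along either locus. The type I locus, taken from 20 kb before Krt222 to 20 kb after Krt42, spans 1.08 Mb and had 27.9 regions per Mb, against 43.7 per Mb for chromosome 11. The type II locus spans 0.724 Mb and had 40.1 regions per Mb, against 28.9 for chromosome 15 and 27.2 for all chromosomes. The type I locus is split by a block of keratin-associated protein genes between Krt40 and Krt33a. Counting only sequence within 20 kb of a keratin gene, the densities were 40.1 (type I) and 44 (type II) regions per Mb.

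**Figure D3:**
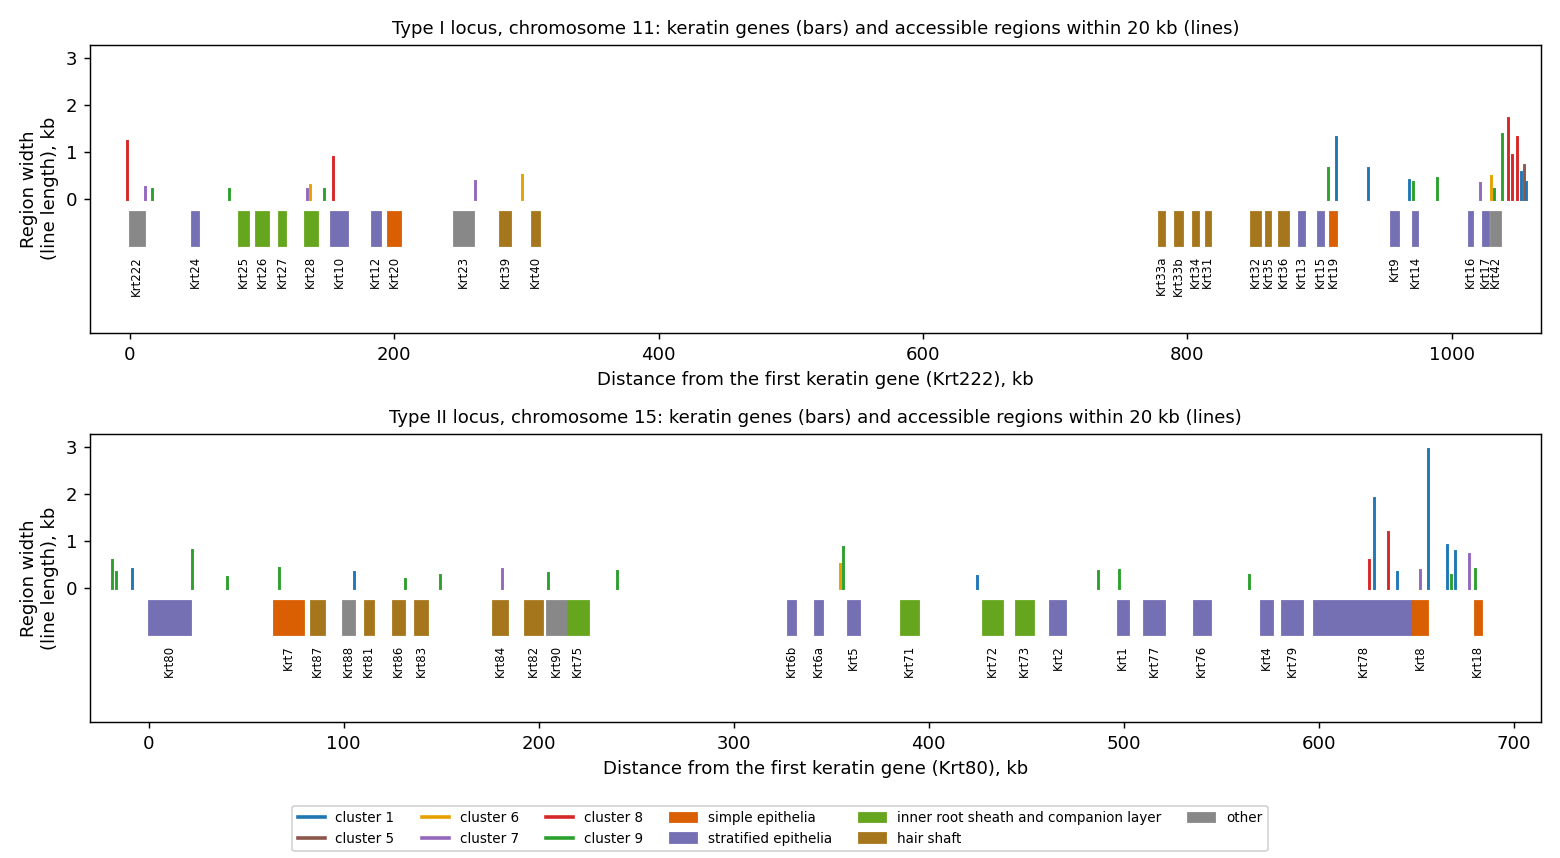
Keratin genes (bars, coloured by tissue role) and the 55 accessible regions (vertical lines, coloured by cluster, with length equal to region width in kb) along the type I locus (top) and the type II locus (bottom); the horizontal axis is the distance from the first keratin gene in kb. Regions crowd at the right-hand end of both loci, at Krt42 and at Krt78, Krt8 and Krt18, and the hair keratins Krt33a to Krt36 at the type I locus have none.

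The barest stretch with keratin genes lay in the type I locus. No region of the table fell in the 201 kb of chr11:99938184-100138823, which holds 9 keratin genes, the hair keratins Krt31 to Krt36 with Krt13 and Krt15. Of all gaps between neighbouring regions in the table, 3.20% are as long, and the median gap is 11.1 kb. This gap was picked as the longest with keratin genes after the gaps were seen. A further 107 kb stretch at chr11:99386740-99493433 holds Krt12, the corneal keratin, Krt20 and Krt23. At the type II locus the longest gap was 114 kb (chr15:101588549-101702329) and holds Krt6a and Krt6b, keratins of activated and hair follicle epidermis. The centre of Krt31 to Krt34 lay farthest from any region: Krt34 was 97.6 kb from the nearest region, and Krt31 was 88.6 kb from it.

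The crowded ends were those of Krt42 and of Krt8 with Krt18. Among keratin genes, Krt42 had most regions within 20 kb, 10, each at most 10 kb from the next, over 35.1 kb (chr11:100254300-100289358). In order along the chromosome they held clusters 7, 6, 9, 9, 8, 8, 8, 1, 5 and 1. The 3 cluster 8 regions, 1733, 943 and 1308 bp wide, lay 5.3 to 12.4 kb from Krt42 on the side of its start, and the last 5 of the 10 lay within Gm14206, a long non-coding RNA gene of the annotation. The 50 kb window that holds them, chr11:100250001-100300000, had 13 regions, with some of them beyond 20 kb from Krt42. At least as many regions are found in 6 of 52602 such windows (0.0114%), this one included. The window was picked after its count was seen. Krt17, a keratin of hair follicles and wounds, shared 6 of the 10, and Krt16 shared 3. The 20 kb limit cuts this run short. With no such limit it went on for 4 more regions, of clusters 9, 1, 8 and 1, to 14 regions over 46.3 kb (chr11:100254300-100300559), and the next protein-coding gene beyond, Eif1, lay 19.4 kb from its last region.

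At the other locus Krt78 and Krt8 each had 8 regions within 20 kb and Krt18 had 5. Neither of the next runs went on beyond the 20 kb limit. A run of 4 regions lay inside the annotated limits of Krt78 (clusters 8, 1, 8 and 1 over 15 kb), among them a cluster 1 region of 1924 bp (chr15:101975914-101977837). By these limits Krt78 is the longest keratin gene (50.6 kb). Its promoter entry starts at chr15:101954287 on the minus strand. All 4 regions lay upstream of that start, the nearest of them 19.3 kb away. A run of 7 followed over 28.3 kb, with clusters 7, 1, 1, 9, 1, 7 and 9. It began inside Krt8, took in the wide region at its start and ended at the start of Krt18. Between the starts of Krt8 and Krt18 lay 2 further cluster 1 regions of 922 and 792 bp, a cluster 9 region of 278 bp and a cluster 7 region of 720 bp. The 50 kb window with 7 of these regions (chr15:102000001-102050000) is matched or passed by 2.69% of all windows. The stretch from Krt78 to Krt18 held 5 of the 8 cluster 1 regions of the type II locus.

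**Figure D4:**
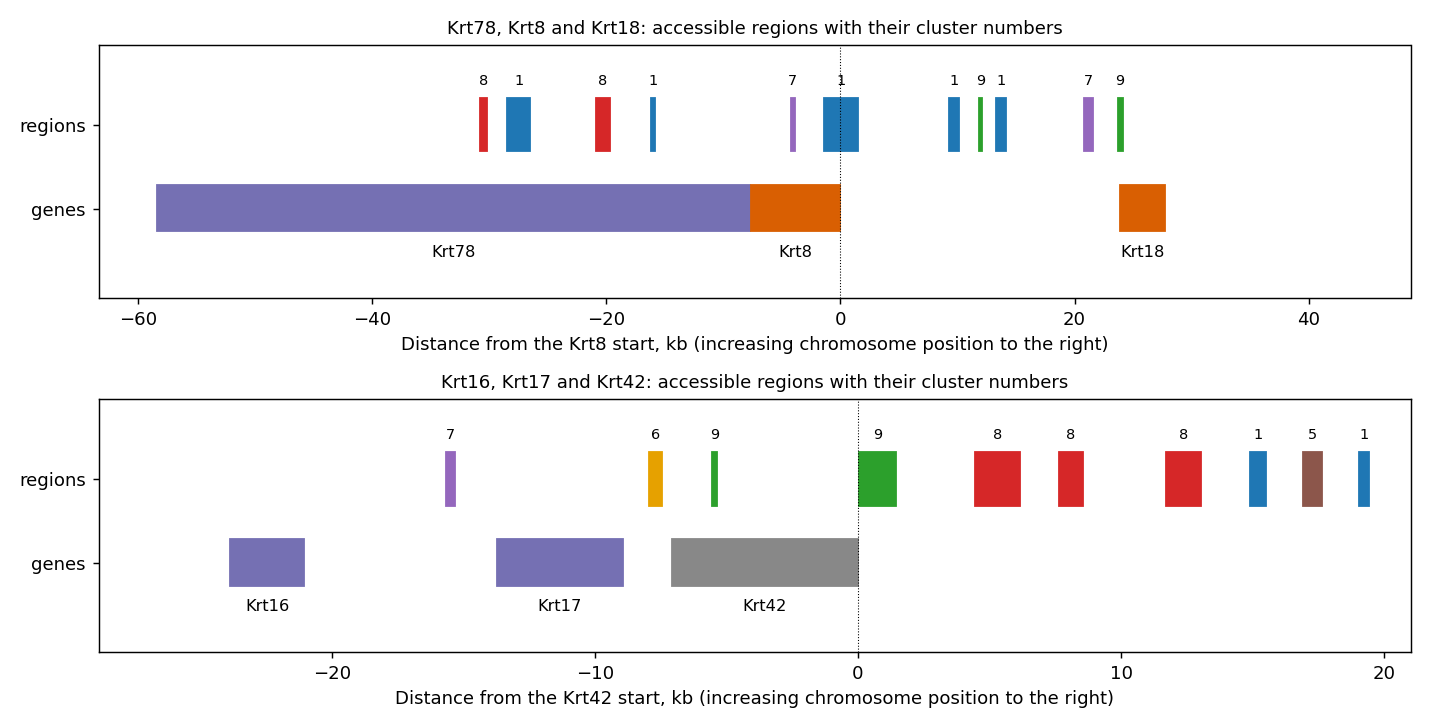
Accessible regions (upper row, width to scale, labelled and coloured by cluster number) and keratin genes (lower row) around Krt78, Krt8 and Krt18 and around Krt16, Krt17 and Krt42; the horizontal axis is the distance in kb from the start of Krt8 or of Krt42 (dotted line). The cluster 1 region of 2958 bp spans the Krt8 start, and 3 cluster 8 regions follow each other to the right of the Krt42 start.

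The remaining genes with many regions were Krt80, Krt28, Krt10 and, with 3 each, Krt9, Krt14, Krt16, Krt86 and Krt222. Krt80 had 5 within 20 kb, 4 of them of cluster 9. Krt28, an inner root sheath keratin, and its neighbour Krt10 had 4 each and shared all of them, of clusters 7, 6, 9 and 8. The cluster 8 region near Krt222 (chr11:99229986-99231225) lay at a gene end of Smarce1, a subunit of the BAF chromatin remodeller, and was the 1 region of 55 nearer to another protein-coding gene than to a keratin gene. Within runs of neighbours at most 10 kb apart, 5 of 26 adjacent pairs of keratin regions shared a cluster (19.2%), against 19.1% of all such pairs in the table.

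Keratin regions were slightly narrower than regions at large, mainly at gene ends. Their median width was 406 bp (range 200 to 2958), against 474 bp for all regions and 501 bp for regions within 20 kb of any protein-coding gene. The median was 466 bp at the type I locus and 398 bp at the type II locus. At keratin gene ends it was 376 bp (13 regions), against 1039 bp for all gene-end regions. Away from any gene end it was 406 bp (41 regions), close to the 415 bp of all such regions. A width of 1 kb or more was reached by 8 of 55 (14.5%), against 23.2% of all regions. Those 8 belonged to cluster 8 (4), cluster 1 (3) and cluster 9 (1). Cluster by cluster, the median was 1195 bp for the 7 keratin regions of cluster 8, against 865 bp for the cluster as a whole, 580 against 496 bp in cluster 1 and 356 against 292 bp in cluster 9. The 7 regions of cluster 7 had a median of 376 bp, against 345 bp, and the 4 of cluster 6 had 502 bp, against 583 bp.

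**Figure D5:**
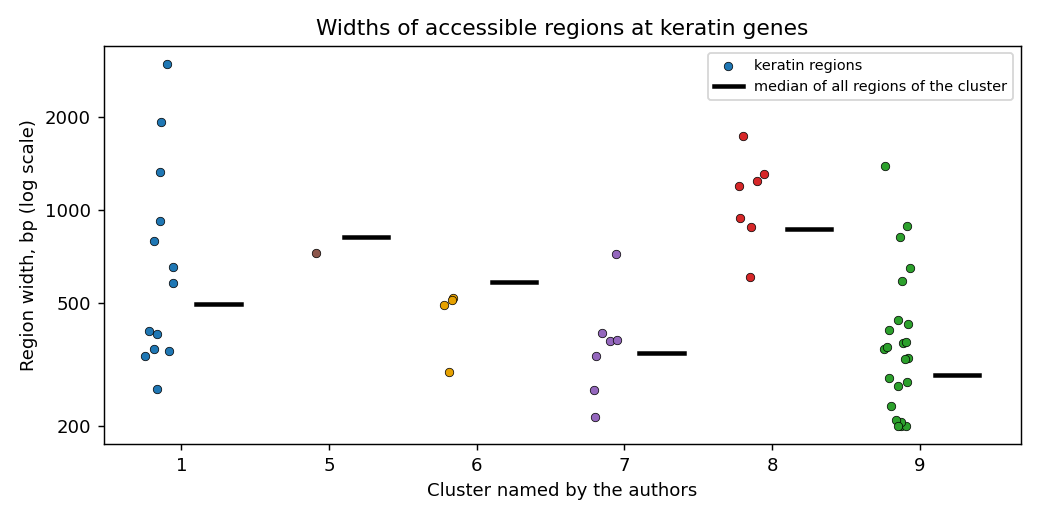
Width of each keratin region (points, bp, log scale) by cluster, beside the median width of all regions of that cluster (black bars). Cluster 8 points lie between 608 and 1733 bp, and cluster 9 points between 200 and 1386 bp.

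By position, 18 of the 55 regions lay inside a keratin gene, 13 at a keratin gene end and 31 outside the genes and away from their ends, with some counted in both of the first classes. The 18 include the 4 inside the limits of Krt78, which lay upstream of its promoter start. A protein-coding gene end of any kind held 14 of 55 (25.5%), against 18.9% of all regions. Every keratin region lies within 20 kb of a protein-coding gene by the rule. Of the 55768 regions of the table that do so, 13205 lay at a gene end, a larger share than among all regions. The median distance to the nearest keratin gene was 2.54 kb. The members farthest out lay 19.2 kb from Krt42 (cluster 1, 354 bp) and 18.9 kb from Krt80 (cluster 9, 589 bp). The nearest regions left out lay 20.3 kb from Krt18 (cluster 1, 525 bp), 21.4 kb from Krt80 (cluster 1, 1543 bp) and 23.1 kb from Krt42 (cluster 9, 239 bp).

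Lists of other filament and epithelial genes were set beside the keratin genes. Those of the linkers, other filaments (nuclear lamins among them) and epithelial regulators had gene-end regions more often than keratin genes. Those of the cornified envelope and hair matrix had them less often, with no test of the difference. A region lay at a gene end of 7 of 9 genes for keratin linkers and desmosomal plaque proteins, such as Jup (plakoglobin, cluster 3) and Dsp (desmoplakin, cluster 8). It did at 9 of 13 genes of other intermediate filaments, such as Vim (vimentin, cluster 3) and Nes (nestin, cluster 8), and at 10 of 12 genes of epithelial transcription factors, such as Tfap2a (cluster 6) and Grhl1 (cluster 3). These shares, 77.8%, 69.2% and 83.3%, stand beside 22.6% of keratin genes and 60.9% of all genes. Of 10 cornified envelope genes, which encode the outer protein shell of the epidermis, 1 did (Tgm1, transglutaminase 1, cluster 1), and of 56 keratin-associated protein genes, which encode the matrix of hair, 2 did (Krtap28-13, cluster 7, and Krtap31-2, cluster 6). Within 20 kb, a region was found for all members of the first 3 lists, for 4 of 10 cornified envelope genes and for 16 of 56 keratin-associated protein genes (28.6%), against 73.6% of keratin genes. Gene lengths differ between the lists, with medians of 46.2 kb (linkers and plaque), 9.36 kb (other filaments), 25.7 kb (transcription factors), 4.32 kb (cornified envelope) and 0.833 kb (keratin-associated proteins), beside 7.07 kb for keratin genes, and the part of length was not tested. Many genes of both families are near-copies of each other, and how well reads were placed on such copies was not tested. Klf4, with a gene-end region, was on the list of epithelial transcription factors and also on that of naive stem cell markers.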

How the data were processed

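The deposited table gives the position of each accessible region and the cluster name the authors assigned to it (a category, with no score or signal). Per the submitters' processing notes, cutadapt 1.18, Bowtie2 2.3.3.1, Picard and SAMtools 1.6 were used with mm10. No source used here says how regions were called, merged and clustered, and the depth per library is unknown. Starts, counted from 0 in the table, were counted from 1 here.

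Regions were placed by their midpoint against gene limits of the GRCm38.p6 RefSeq table, with Python 3.11.15, pandas 2.3.3 and SciPy 1.17.1. Shares carry exact (Clopper-Pearson) 95% binomial intervals, and a count of 0 is given with the share that 3 counts would make. No test was run. Placing was checked with 1 simulated region planted at a set distance, within or beyond 20 kb, from each of 200 protein-coding genes. In 200 of 200 cases it was counted or left out as due, which checks the code only. The members, gene lists and roles were chosen with earlier results of these data known. Genes were named if they had a gene-end region, ranked among the 5 with most regions in their locus, or belonged to a fixed set of 8 (Krt1, Krt5, Krt7, Krt8, Krt10, Krt14, Krt18 and Krt19); of other lists, the first 2 members with a gene-end region. Other genes were named after their values were seen, as was the set of genes of similar length.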

Additional observations from a re-analysis of the deposited data

How the results depend on the processing

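The number of keratin regions was 18 inside genes only and 33 within 5 kb, against 55 within 20 kb, as fewer bases are counted. It stayed within 1.5 times in 7 of 9 settings (any overlap, 50 kb, symbols of digits only, nearest gene a keratin gene, pseudogenes added, regions of 300 bp or wider, and without the runs of 5 or more neighbours, which was added after seeing the data). The share of cluster 9 stayed within its 95% interval in all 9 settings at both loci, but these intervals are wide and several settings kept nearly the same regions. Within 5 kb the share was 7 of 18 (38.9%) at the type II locus and 5 of 15 (33.3%) at the type I locus. Inside genes only it was 5 of 12 (41.7%) and 2 of 6 (33.3%). Without the runs it was 13 of 22 (59.1%) and 6 of 16 (37.5%). The 2 loci were thus closer to each other in the narrower windows. Clusters 2, 3 and 4 had 1 region within 50 kb. The share of keratin genes with a gene-end region was 9.43% when a region had to overlap a gene limit and 11.1% for gene starts only, against 22.6%, and stayed within its interval with windows of 500 bp (15.1%) and 2.5 kb (28.3%) and for wider regions (18.9%). It was below that of all genes in each of these settings (49.3% to 69.8%). No paired analysis was possible because the table holds no value per library. For the same reason the planned contrasts of Fix_1,6-Hex with Fix and of Fix with Fresh, and the fits without each replicate, were not run.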
